A study of Phyllostachys edulis with 34 samples.

Results

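Leaves of moso bamboo (Phyllostachys edulis) seedlings kept for 3 h in nutrient solution with 25% polyethylene glycol (PEG 3 h) were compared with leaves of seedlings kept for 3 h with 1 µM abscisic acid (ABA 3 h). The 3 libraries labelled PEG 3 h and the 3 labelled ABA 3 h were taken by their labels, which makes 6 of the 34 libraries of the series. The series is poly-A RNA sequencing of leaves in 11 groups, CK, PEG, NaCl, SA (salicylic acid) and ABA at 3 h and 24 h with 3 libraries each and a group at 0 h with 4. The comparison asks which transcripts the osmotic treatment set at other levels than the hormone given alone. Besides the groups compared, CK 3 h (read here as the untreated control, which the labels do not spell out), NaCl 3 h (200 mM), PEG 24 h and CK 24 h were used. All seedlings grew in the same kind of nutrient solution, and the labels name neither a cultivar nor how many seedlings made up a sample.

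PEG is a polymer that stays outside the cells and lowers the water potential of the solution, so that roots take up less water and the plant meets an osmotic stress like that of drought. Drought raises the plant's own abscisic acid, which closes stomata and switches on many genes through its receptors, protein phosphatases and kinases, while other genes of the drought response do not need the hormone. Lignin, the phenolic polymer of secondary cell walls, is built from monolignols made in a chain of enzymes that begins with phenylalanine ammonia-lyase (PAL) and ends with cinnamyl alcohol dehydrogenase (CAD), and stress often alters the expression of its genes.

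The PEG 3 h libraries held 29837416 to 31549365 counts and the ABA 3 h libraries 28153302 to 30953554, against 32579837 to 50659602 in CK 3 h. Between 36487 and 38191 genes had a count in PEG 3 h, 34275 to 34862 in ABA 3 h and 39336 to 40245 in CK 3 h. Replicates differed most in ABA 3 h at low levels. Among genes at 1 to 3 CPM (counts scaled to the total of the library) the median SD of log2 CPM between replicates was 0.39 in PEG 3 h, 0.69 in ABA 3 h and 0.26 in CK 3 h, and at 10 to 30 CPM it was 0.16, 0.23 and 0.096 in the same order. The 4 most abundant gene models over the 6 libraries took 3.41 to 7.41% of the counts in PEG 3 h, but 9.32 to 10.4% in ABA 3 h, against 0.470 to 0.547% in CK 3 h. All 4 had identifiers of added gene models, without a name in the sources used here, and none passed the threshold between PEG and ABA (log2 fold changes from -1.07 to -0.031, adjusted p from 0.0547 to 0.915, edgeR). Both treatments were above CK for each of them, by 2.81 to 4.98 on the log2 scale in PEG 3 h and by 2.85 to 5.47 in ABA 3 h. In NaCl 3 h their fitted values against CK were negative (-1.05, -1.88, -6.90 and -0.84, the last not past the threshold). The leaf label could not be checked by marker genes, because no gene names other than those of the lignin genes were at hand.

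At the threshold of an adjusted p under 0.05 (Benjamini-Hochberg, edgeR's quasi-likelihood test) and at least 2-fold, 3708 genes were higher and 2790 lower in PEG 3 h than in ABA 3 h. These were 10.0% and 7.56% of the 36914 genes tested, 17.6% together. The tissue was sequenced in bulk, so that fewer cells of a type and less RNA per cell cannot be told apart. The split between the directions depended on the scale. Changes are given relative to TMM normalization, which assumes that most genes do not differ. On the deposited FPKM values, which scale the fragments of a gene to its length and to all fragments of the library, the PEG to ABA ratio of a gene lay lower by a median of 0.26 on the log2 scale over 13039 genes. With limma on log2(FPKM + 1), 1684 genes were higher and 2125 lower, so that higher genes made up 44.2% of the calls instead of 57.1%, and on log2(FPKM + 0.1) they made up 39.7% (3036 higher and 4615 lower). Fold changes below come from the TMM-normalized counts, and the FPKM values beside them are levels as the authors deposited them. TMM factors were 0.870 to 0.890 in PEG 3 h, 1.06 to 1.08 in ABA 3 h and 1.11 to 1.12 in CK 3 h. FPKM thus set PEG lower against CK too.

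Among the 14754 genes with a mean of at least 10 CPM over the 6 libraries, 1724 were higher in PEG 3 h (11.7%) and 661 were lower (4.48%). The higher genes had a median log2 fold change of 1.53, and 504 of them differed by at least 4-fold and 176 by at least 8-fold. For the lower genes the median was -1.36, with 121 at 4-fold or more and 32 at 8-fold or more. All 14754 genes together had a median of 0.11, and 83.6% of them lay within 2-fold. On log2(FPKM + 1) the same set gave 1119 higher and 927 lower genes, and with TMM factors taken from such genes alone there were 1424 higher and 848 lower among 14566. The shares differed with the level: above 100 CPM 26.4% of 1608 genes were higher and 3.73% lower in PEG, at 10 to 100 CPM 9.88% and 4.57%, at 1 to 10 CPM 7.44% and 12.2%, and under 1 CPM 11.4% and 5.39%.

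**Figure D1:**
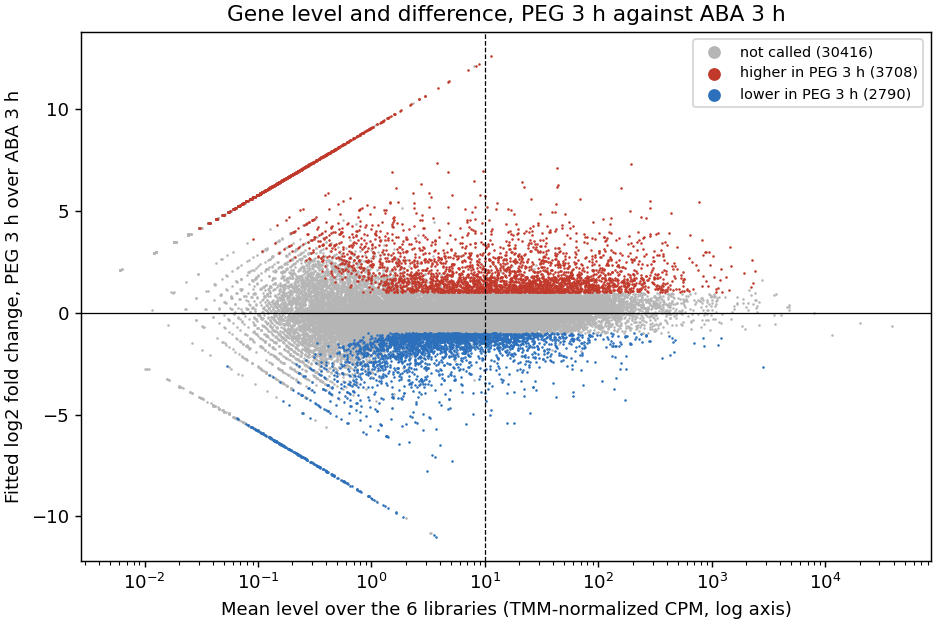
Each point is 1 of the 36914 genes tested, by its mean level over the 6 libraries (x, TMM-normalized CPM on a log axis) and its fitted log2 fold change of PEG 3 h over ABA 3 h (y), in red for the 3708 higher, in blue for the 2790 lower and in grey for the other genes. The straight diagonal lines at the left are genes without a count in 1 of the groups, whose fitted values are no measured folds, and right of the dashed line at 10 CPM the red points outnumber the blue ones by 1724 to 661.

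Genes of low level followed another pattern. Of the called genes, 722 of the higher had no count in the 3 ABA libraries, and 174 of the lower had none in the 3 PEG libraries. The median level of the 749 higher genes with a fitted change of 32-fold or more was 0.338 FPKM in PEG 3 h and 0 in ABA 3 h, against 0.206 in CK 3 h, and 728 of them lay under 10 CPM. A stricter set, taken from all 59091 genes, held at least 10 counts in each library of one group and none in the other. In it 184 genes were seen in PEG and absent from the ABA counts, and 46 the other way round. Chosen in this way, all 184 were called, and 45 of the 46. Of the 184 genes, 50 also had at least 10 counts in each CK 3 h library and 51 had none in CK. The fewer genes detected and the wider spread at low levels in ABA 3 h stand beside these numbers, and their part in them was not tested.

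Set beside CK 3 h, most genes higher in PEG than in ABA were also above CK in PEG, and their position in ABA differed between all genes and those of higher level. Both comparisons share the CK libraries, and the PEG and ABA libraries had already chosen the genes, so these are descriptions without a test. Of the 1724 higher genes with at least 10 CPM, 1363 (79.1%) were at least 2-fold above CK in PEG 3 h, with a median log2 fold change of 1.85. In ABA 3 h, 1206 (70.0%) of the same genes lay within 2-fold of CK, 374 were above it and 144 below, with a median of 0.21. For the 661 lower genes the median against CK was -0.66 in PEG and 0.81 in ABA. In PEG 229 of them (34.6%) were at least 2-fold below CK, and in ABA 280 (42.4%) were at least 2-fold above it. Over genes of every level the values were others. Of all 3708 higher genes, 65.2% were at least 2-fold above CK in PEG (median 1.58), while in ABA 49.6% were within 2-fold of CK and 1301 (35.1%) at least 2-fold below it, and the ABA median had the other sign (-0.31). Of all 2790 lower genes, 49.9% were at least 2-fold below CK in PEG (median -0.997) and 38.3% at least 2-fold above it in ABA (median 0.65), so that the larger share was on the side of PEG. These are fitted values, which are no bounds for the genes without a count in a group.

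Single genes showed how far the difference could go. PH02Gene46280 had 67.2, 52.4 and 30.2 FPKM in PEG 3 h, with no count in any ABA 3 h, CK 3 h or NaCl 3 h library. At 24 h it had 0, 23 and 31 counts in CK and none in PEG. With ABA set at 3 counts per library it was at least 187-fold higher in PEG. PH02Gene50244 had 31.9 and 49.1 FPKM in PEG replicates 1 and 2 but no count in replicate 3, and none in ABA. Its call stood just inside the threshold (adjusted p = 0.0478, edgeR). It was lost without PEG replicate 1 (0.0778) or replicate 2 (0.0922), and without any 1 of the ABA libraries (0.0931 to 0.0967). In NaCl 3 h and in CK 24 h, too, 1 library of 3 held counts of it and the others none. Neither gene is annotated in the sources used here.

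In the other direction, PH02Gene11486 had 0.224, 0 and 1.10 FPKM in PEG 3 h, against 22.1, 28.1 and 23.1 in ABA 3 h and 0 to 0.370 in CK 3 h (log2 fold change PEG over ABA -5.47, SE 0.92, adjusted p = 2.94e-04, edgeR). The gene was above CK in ABA at 3 h (6.67) and did not pass the threshold in PEG (1.20), yet at 24 h the PEG libraries held 112, 125 and 113 FPKM, against 0.105, 0 and 0 in CK 24 h. PH02Gene15877 had 0.887, 0.365 and 0.733 FPKM in PEG 3 h and 34.4, 31.8 and 40.9 in ABA 3 h (-5.43, SE 0.32, adjusted p = 1.32e-09), while CK 3 h lay between them at 4.48 to 4.74. It was below CK in PEG at 3 h (-2.36) and at 24 h (-4.10), and above CK in ABA 3 h (3.07).

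Salt is the other osmotic treatment of the series, and NaCl 3 h against CK 3 h shares no library with PEG 3 h against ABA 3 h. Over all 36914 genes, 10.8% were higher and 8.74% lower in NaCl than in CK, 19.6% together. Of the 3708 genes higher in PEG than in ABA, 1538 (41.5%) were higher and 122 (3.29%) lower in NaCl. Of the 2790 lower genes, 384 (13.8%) were higher and 626 (22.4%) lower. With at least 10 CPM, where 14.2% of all genes were higher and 7.51% lower in NaCl (21.7% together), the higher genes gave 997 higher (57.8%) and 40 lower (2.32%), and the lower genes gave 130 higher (19.7%) and 228 lower (34.5%). The share above CK in salt was thus larger among the genes higher in PEG than among all genes of that level, and both shares were above those of all genes among the genes lower in PEG. No test of these shares was made.

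At 24 h the picture was another. PEG 24 h against CK 24 h, which shares no library with the comparison at 3 h either, had 8.38% higher and 10.4% lower among 37229 genes tested, 18.8% together. Of the genes higher in PEG than ABA at 3 h, 3488 were tested at 24 h, and 571 (16.4%) were higher and 746 (21.4%) lower in PEG than in CK. Of the 2744 lower genes tested there, 368 (13.4%) were higher and 494 (18%) lower. With at least 10 CPM the higher genes gave 326 higher (18.9%) and 377 lower (21.9%) of 1723, against 8.05% and 7.75% of all 14753 genes (15.8% together). Both shares at 24 h lay above those of all genes, and among the genes higher at 3 h fewer were higher than lower at 24 h.

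**Figure D2:**
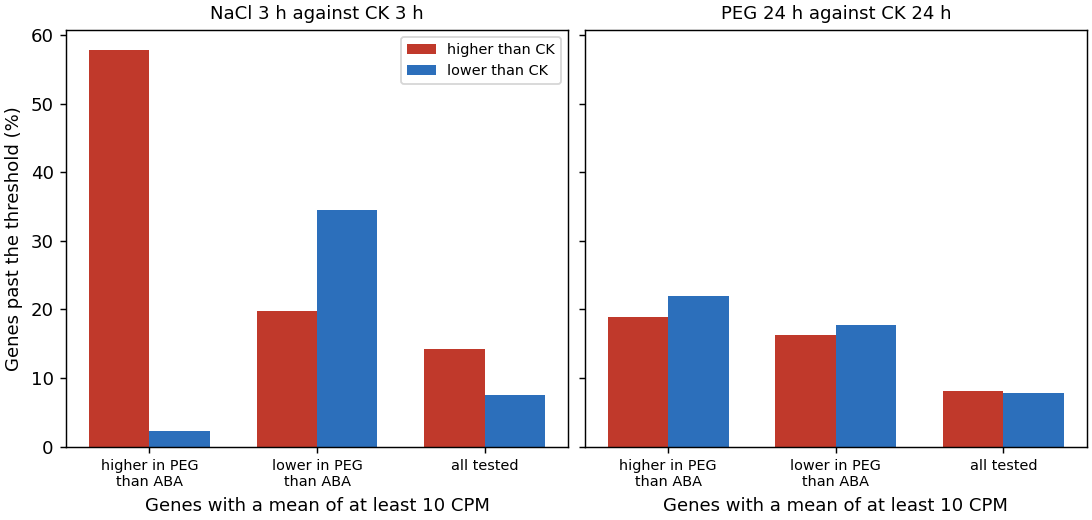
Bars give the percentage of genes past the threshold as higher (red) or lower (blue) than CK in NaCl 3 h (left) and in PEG 24 h (right), for genes with a mean of at least 10 CPM that were higher in PEG 3 h than ABA 3 h, lower, or all tested. In NaCl 3 h the bar of higher genes stands at 57.8% for genes higher in PEG than ABA, against 14.2% of all genes, while at 24 h both directions are at 16.3 to 21.9% in both sets.

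Lignin genes were taken from the study's list of 11 enzyme families, 159 genes in all, of which 118 passed the filter on low counts. The other 41 had at most 37 counts in any of the 6 libraries, 23 of them none. Between PEG 3 h and ABA 3 h, 14 lignin genes were higher, 21 lower and 83 not called, which makes 29.7% called beside the 17.6% of all genes. The median log2 fold change over the 118 genes was -0.29 (-0.38 on log2(FPKM + 1), where the median of all genes was -0.15). Of the 35 calls, 27 held with each PEG and ABA library left out in turn. Against CK, PEG 3 h had 30 lignin genes higher and 7 lower (all genes: 13.2% and 11.3%) and ABA 3 h had 31 higher and 6 lower (all genes: 10.0% and 9.70%). The enzyme roles given below are those known from Arabidopsis, poplar and other plants. No source at hand says how reads matching several genes of a family were counted, so that values of closely related members are uncertain.

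**Figure D3:**
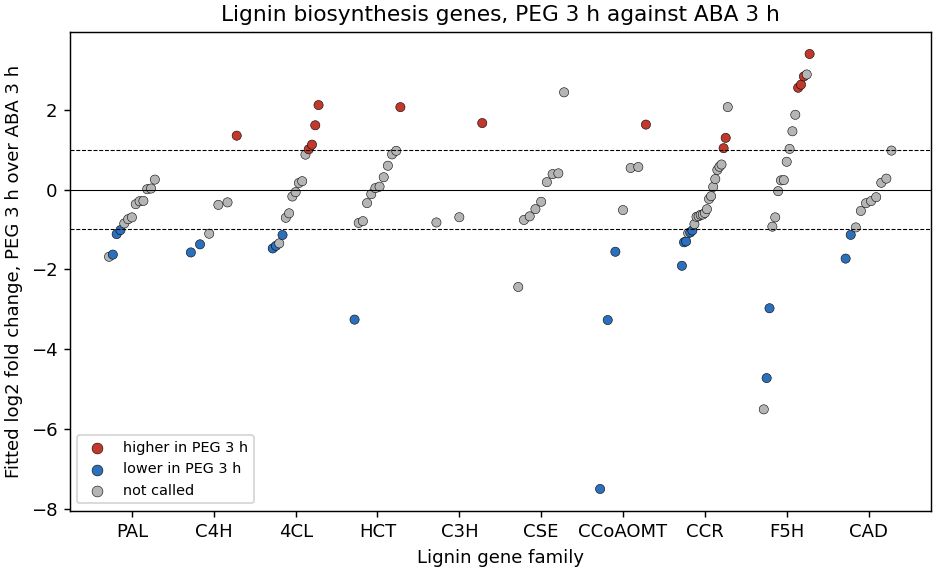
Each point is 1 of 115 lignin genes tested in 10 families, grouped by family in the order of the pathway (x), with its fitted log2 fold change of PEG 3 h over ABA 3 h (y), in red for the 14 higher, in blue for the 21 lower and in grey for 80 not called. Dashed lines mark 2-fold, and the 3 called PAL genes are all lower. F5H and 4CL hold 4 of the higher genes each, and the lowest point, in CCoAOMT, is a gene with no count in PEG.

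PAL opens the pathway by turning phenylalanine into cinnamic acid, and its called genes were lower in PEG than in ABA. Of 13 PAL genes tested 3 were lower and 0 higher by edgeR, and DESeq2 also counted 3 lower and 0 higher. The called share was 23.1%, beside 17.6% of all genes, of which 7.56% were lower. At an unadjusted p under 0.05 there were 6 lower and 0 higher PAL genes, 6 of 13, where 46.5% of all genes tested passed (24.8% higher and 21.7% lower). The PAL gene of highest level, PH02Gene30509, had 29.5, 33.4 and 29.6 FPKM in PEG 3 h, against 77.1, 82.2 and 82.4 in ABA 3 h and 24.7 to 27.5 in CK 3 h (log2 fold change PEG over ABA -1.12, SE 0.10, adjusted p = 1.47e-07, edgeR). Against CK the gene did not pass in PEG (0.64) and was higher in ABA (1.76) and in NaCl 3 h (2.11). PH02Gene30511 was lower in PEG as well, with 2.93, 1.90 and 2.21 FPKM in PEG and 7.50, 8.43 and 10.3 in ABA (-1.63, SE 0.17, adjusted p = 1.47e-06). Summed over its 14 genes, PAL reached 112 to 124 FPKM in PEG 3 h, 235 to 244 in ABA 3 h and 146 to 155 in CK 3 h. On the TMM scale PEG was not below CK: 4 PAL genes were higher and 0 lower than CK, with a median log2 fold change of 0.0097. In ABA 8 were higher and 0 lower (median 1.06). Of all genes tested, 13.2% were higher and 11.3% lower than CK in PEG, and 10.0% and 9.70% in ABA.

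Cinnamate hydroxylase (C4H) adds the first ring hydroxyl group, and its 6 genes went both ways, with 1 higher and 2 lower. This made 50.0% called, beside 17.6% of all genes. DESeq2 counted 1 higher and 3 lower. PH02Gene46974 had 31.2, 19.2 and 28.4 FPKM in PEG, against 8.93, 15.2 and 12.97 in ABA (1.35, SE 0.17, adjusted p = 8.83e-06, edgeR). PH02Gene41975 had 3.06, 1.96 and 3.20 FPKM in PEG and 11.3, 8.33 and 9.92 in ABA (-1.58, SE 0.20), and PH02Gene44264 had 5.18, 2.78 and 4.70 in PEG and 12.1, 15.5 and 11.9 in ABA (-1.37, SE 0.23). These 3 genes were past the threshold above CK in both treatments. The C4H gene of highest level, PH02Gene03697, was not called, at 79.0 to 86.4 FPKM in PEG and 127 to 135 in ABA (-0.38, SE 0.09, adjusted p = 0.00391).

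Coumarate-CoA ligase (4CL) activates hydroxycinnamic acids as CoA esters, and its members split, with 4 of 15 tested higher and 3 lower. The called share was 46.7%, beside 17.6% of all genes. DESeq2 counted 3 higher and 3 lower, and on log2(FPKM + 1) 2 were higher and 3 lower. The largest rise was that of PH02Gene00825, with 85.5, 70.4 and 79.1 FPKM in PEG against 23.2, 21.6 and 20.3 in ABA (2.12, SE 0.09, adjusted p = 2.04e-11, edgeR). In this gene ABA stayed at the level of CK (20.4 to 22.9 FPKM) and NaCl 3 h was above it (53.5 to 60.8 FPKM). PH02Gene26838, at the highest level of the family, went the other way, with 35.5, 33.4 and 35.1 FPKM in PEG and 90.1, 90.9 and 94.2 in ABA (-1.14, SE 0.09, adjusted p = 2.56e-08), and CK between them at 59.9 to 66.4. PH02Gene22533 had 8.44 to 10.6 FPKM in PEG and 30.98 to 31.9 in ABA (-1.48, SE 0.10), and PH02Gene03793 14.4 to 15.4 in PEG and 45.3 to 50.3 in ABA (-1.41, SE 0.12). PH02Gene24626 was higher in PEG, at 3.97 to 6.83 FPKM against 1.21 to 3.13 in ABA (1.61, SE 0.26). Against CK it was lower in ABA (-1.37) and not past the threshold in PEG (0.24).

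The next enzymes carry the coumaroyl group through a shikimate ester. Hydroxycinnamoyl transferase (HCT) had 1 higher and 1 lower gene of 12 tested, a share of 16.7%, near the 17.6% of all genes. PH02Gene48963, which the study's supplement lists as HCT and its text as cinnamoyl-CoA reductase, had 111, 116 and 108 FPKM in PEG, 33.6, 33.2 and 29.4 in ABA and 11.2 to 13.7 in CK (PEG over ABA 2.06, SE 0.11, adjusted p = 3.17e-10, edgeR). The libraries of the 3 groups did not overlap, and NaCl 3 h stood at 94.8 to 125 FPKM. Between PEG and ABA, 36.6% of the genes with at least 10 CPM did not overlap in this direction. PH02Gene48286 had 0.218 to 0.464 FPKM in PEG and 3.54 to 5.92 in ABA (-3.26, SE 0.59, adjusted p = 3.48e-04), and the HCT gene of highest level, PH02Gene24931, was at 101 to 114 FPKM in PEG and 104 to 109 in ABA (0.31, SE 0.09). In coumarate hydroxylase (C3H), which acts on the shikimate ester, PH02Gene43237 was higher, at 40.6, 37.7 and 37.5 FPKM in PEG against 13.6, 14.4 and 15.9 in ABA (1.66, SE 0.09, adjusted p = 7.19e-10), with ABA near CK (12.1 to 14.7). The C3H gene of highest level, PH02Gene03849, had 62.4 to 71.9 FPKM in PEG and 126 to 132 in ABA and missed the fold criterion (-0.69, SE 0.10). Of the 9 genes of caffeoyl shikimate esterase (CSE) tested 0 were called by edgeR, against 1 higher by DESeq2, while an unadjusted p under 0.05 was met by 2 genes higher and 1 lower, 3 of 9 beside 46.5% of all genes. The CSE gene of highest level, PH02Gene34362, at 78.6 to 96.0 FPKM in PEG and 157 to 168 in ABA, gave -0.67 (SE 0.10).

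Caffeoyl-CoA methyltransferase (CCoAOMT) makes feruloyl-CoA, the precursor of guaiacyl units. Its leading gene PH02Gene07558 had 221, 166 and 189 FPKM in PEG 3 h, against 73.3, 69.9 and 80.7 in ABA 3 h and 36.9 to 42.9 in CK 3 h (PEG over ABA 1.63, SE 0.12, adjusted p = 1.64e-08, edgeR). Both treatments were above CK, PEG by 2.65 and ABA by 1.02, and NaCl 3 h was above it by 2.36. Of the 7 CCoAOMT genes tested 57.1% were called, beside 17.6% of all genes. The 3 lower genes of the family were of low level: PH02Gene31245 had 0.150 to 0.480 FPKM in PEG and 2.92 to 4.48 in ABA (-3.27, SE 0.47), and PH02Gene50882 had no count in PEG and 18, 27 and 18 counts in ABA, at least 5.94-fold lower in PEG with 3 counts set per library. The call of PH02Gene50882 was lost without PEG replicate 1 or replicate 3, at an adjusted p of 0.0542 and 0.0547.

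Cinnamoyl-CoA reductase (CCR) commits CoA esters to monolignols. Of 23 CCR genes tested 2 were higher and 5 lower, a share of 30.4% beside 17.6% of all genes. The 2 higher calls did not hold on log2(FPKM + 1), where 0 were higher and 5 lower. On log2(FPKM + 0.1) 1 was higher and 6 were lower. The member of highest level, PH02Gene42850, was lower, at 18.2, 21.3 and 17.3 FPKM in PEG against 56.9, 59.7 and 54.2 in ABA (-1.32, SE 0.09, adjusted p = 1.19e-08, edgeR). PEG was close to CK (20.4 to 20.8 FPKM), ABA above it, and NaCl 3 h below it, at 7.62 to 8.96 FPKM. PH02Gene20528 had 3.30 to 4.79 FPKM in PEG and 14.8 to 22.2 in ABA (-1.91, SE 0.17), with CK at 3.52 to 4.13. PH02Gene04803 was higher in PEG, at 42.1 to 56.2 FPKM against 19.8 to 26.8 in ABA (1.29, SE 0.13), and PH02Gene42960 stood just past 2-fold, at 16.2 to 21.4 FPKM in PEG and 8.66 to 12.9 in ABA (1.04, SE 0.20). PH02Gene42960 missed the fold criterion without PEG replicate 2 (0.90) or ABA replicate 1 (0.91) and on the FPKM scale (0.73).

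Ferulate hydroxylase (F5H) is the cytochrome P450 that leads to syringyl units, and its family held the largest rises among the lignin genes. PH02Gene18881 had 282, 292 and 278 FPKM in PEG 3 h, 48.7, 49.5 and 45.6 in ABA 3 h and 98.2 to 101 in CK 3 h (PEG over ABA 2.83, SE 0.07, adjusted p = 1.18e-13, edgeR). Against CK it was higher in PEG (1.91), lower by less than 2-fold in ABA (-0.92) and near 0 in NaCl 3 h (0.012). PH02Gene30039 had 6.89, 11.1 and 6.63 FPKM in PEG and 1.60, 0.595 and 0.598 in ABA (3.40, SE 0.45), with CK at 0.837 to 0.912 and NaCl 3 h at 0.833 to 1.57. PH02Gene24107, named after its values were seen, had 77.7, 80.8 and 76.3 FPKM in PEG and 13.9, 15.0 and 16.7 in ABA (2.63, SE 0.09, adjusted p = 6.57e-12). None of these 3 genes passed the threshold in NaCl 3 h against CK 3 h. The F5H genes together reached 464 to 503 FPKM in PEG, 196 to 199.7 in ABA and 241 to 253 in CK, and PH02Gene18881 made up most of the sum in PEG.

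Of 17 F5H genes tested, 4 were higher and 2 lower, a share of 35.3% beside 17.6% of all genes. PH02Gene36673 had 0 to 0.228 FPKM in PEG and 2.29 to 5.80 in ABA (-4.73, SE 0.62, adjusted p = 1.48e-05, edgeR). PH02Gene38755 had 0.0642 to 0.195 FPKM in PEG and 0.763 to 1.57 in ABA (-2.98, SE 0.76), and both were above CK in ABA.

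CAD reduces hydroxycinnamaldehydes to the monolignols. Of its 14 genes 10 were tested, and 2 were lower in PEG than in ABA and 0 higher by edgeR and by DESeq2. This share, 2 of 10, was near the 17.6% of all genes, and at an unadjusted p under 0.05 there were 5 lower and 1 higher, beside 46.5% of all genes. PheCAD4 (PH02Gene44682) had 0.549, 0.443 and 0.816 FPKM in PEG 3 h, against 3.37, 2.59 and 1.27 in ABA 3 h and 2.80 to 3.35 in CK 3 h (-1.73, SE 0.35, adjusted p = 0.00102). PEG and ABA libraries did not overlap, as for 18.5% of all genes tested in this direction. PEG was below CK (-1.96) where ABA was not past the threshold (-0.23). PheCAD13 (PH02Gene48685) had 1.20, 1.71 and 1.90 FPKM in PEG, 3.52, 4.89 and 4.395 in ABA and 3.00 to 4.28 in CK (-1.14, SE 0.24, adjusted p = 0.00117), and without PEG replicate 1 it missed the fold criterion (-0.95). At 24 h it was above CK in PEG (1.27).

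PheCAD3 (PH02Gene38470), the CAD gene of highest level here, had 259, 214 and 253 FPKM in PEG 3 h, 162, 137 and 144 in ABA 3 h and 31.2 to 31.9 in CK 3 h. All PEG libraries were above all ABA libraries, as for 36.6% of the genes with at least 10 CPM. Both groups were far above CK, by 3.33 and 2.36 on the log2 scale. The difference between PEG and ABA, 0.98 (SE 0.11, adjusted p = 1.84e-06, edgeR), lay just under the fold criterion and passed it without PEG replicate 2 or ABA replicate 1 (1.05 each). The mean FPKM, 242 in PEG and 148 in ABA, lay less than 2-fold apart as well. PheCAD5 (PH02Gene38471), whose identifier follows that of PheCAD3, had 9.01, 8.59 and 3.33 FPKM in PEG and 3.13, 9.27 and 9.91 in ABA. One library of each group was low, the groups overlapped, and the difference was 0.17 (SE 0.38, adjusted p = 0.768), of either sign depending on the scale.

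PheCAD8 (PH02Gene13789) had 28.2, 23.2 and 25.8 FPKM in PEG, against 44.8, 44.9 and 44.9 in ABA and 57.6 to 62.9 in CK. It was lower in PEG by less than 2-fold (-0.54, SE 0.09, adjusted p = 2.33e-04, edgeR). PheCAD2 (PH02Gene39617) had 26.97, 16.1 and 22.7 FPKM in PEG and 30.7, 30.7 and 35.2 in ABA (-0.29, SE 0.13, adjusted p = 0.0862). PheCAD1, PheCAD12 and PheCAD14 gave 0.27 (SE 0.16), -0.19 (SE 0.09) and -0.34 (SE 0.34), none past the threshold. PheCAD11 rested on 13, 5 and 11 counts in PEG and 58, 8 and 0 in ABA, and its value (-0.95, SE 0.93) changed sign without ABA replicate 1. PheCAD6, PheCAD7, PheCAD9 and PheCAD10 did not pass the filter, with 0 to 16 counts per library in PEG and 0 to 8 in ABA, where a count of 0 allows up to 3 counts, 0.0951 to 0.107 CPM of the library, for counting error only.

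**Figure D4:**
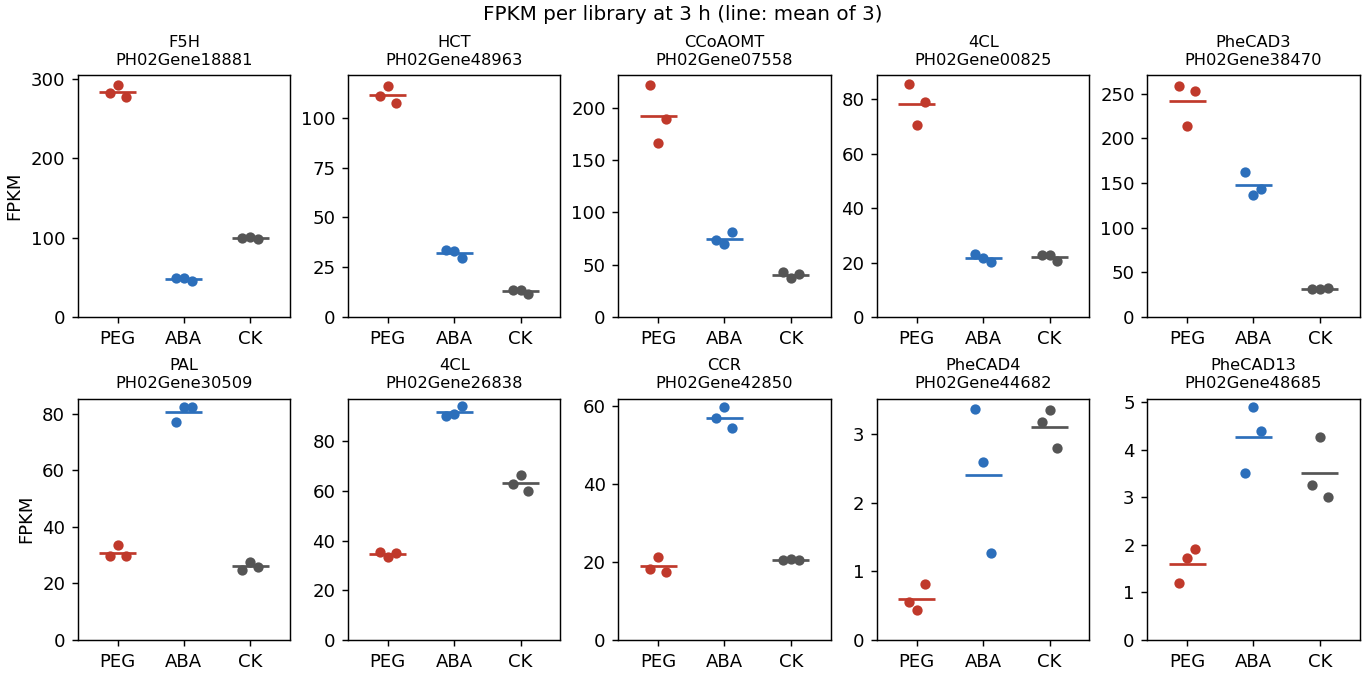
FPKM (y, from 0) of 10 lignin genes in the 3 libraries each of PEG, ABA and CK at 3 h (x); points are libraries and lines the means of 3. In the upper row the PEG libraries stand above the ABA libraries, and in the lower row below them, with F5H PH02Gene18881 at 278 to 292 FPKM in PEG against 45.6 to 49.5 in ABA.

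As a group, the 14 lignin genes higher in PEG than ABA had a median of 2.13 against CK in PEG and of 0.23 in ABA, and the 21 lower genes a median of -0.14 in PEG and of 1.60 in ABA. These medians share the CK libraries and the libraries that made the calls, and carry no test. In NaCl 3 h and CK 3 h, which are neither of the groups compared, 7 of the 14 higher genes were higher in NaCl than in CK and none was lower. Among all 3708 genes higher in PEG than ABA, 41.5% were higher and 3.29% lower in NaCl. Of the 21 lower lignin genes 8 were higher and 4 lower, beside 13.8% and 22.4% of all 2790 lower genes. Of the 83 lignin genes not called, 16 were higher and 12 lower. Over all genes tested the shares were 10.8% and 8.74%. In PEG 24 h against CK 24 h, 1 of the 14 higher lignin genes was lower and none higher. Of all genes higher in PEG than ABA at 3 h and tested there, 16.4% were higher and 21.4% lower. Of 20 lower lignin genes tested at 24 h, 5 were higher and none lower, beside 13.4% and 18% of all lower genes tested there. Among all 37229 genes tested at 24 h, 8.38% were higher and 10.4% lower.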

How the data were processed

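The authors deposited raw counts per gene (whole numbers, not normalized) and FPKM values, for 59091 genes in 34 libraries; the submitters' processing notes name HISAT2 and DESeq2, with no version, and the genome build, annotation and counter are not stated in these sources. FPKM served for levels and counts for tests. In R 4.3.3, edgeR 4.0.16 was fitted to the 15 libraries at 3 h (5 groups, filterByExpr, TMM); the 24 h libraries had a fit of their own. The 0 h group was left out because 1 of its 4 libraries is known to lie apart. An approximate SE was taken as the absolute log2 fold change divided by the root of F. P-values were adjusted over all genes tested. A group without counts was set to 3 counts per library for a bound. The study states 3 biological replicates; no libraries of a group compared held identical values.

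The libraries and gene lists were chosen with earlier results of these data known. The text names all 14 PheCAD genes, in each other lignin family at most the 2 largest rises and falls and the gene of highest FPKM, and by identifier the 2 largest rises and falls among genes with a mean of at least 10 FPKM; 1 more F5H rise was added after its values were seen. For 5 lignin genes the study's supplement and text give different families; the supplement was followed. The members of 1 of the 11 families are in the counts over all lignin genes but are not reported here by themselves. Alternatives were DESeq2 1.42.0 or its size factors, no filter, only the compared groups, all 34 libraries, a replicate block, glmTreat, limma 3.58.1 on log2 FPKM with pseudocounts of 1 and 0.1, and each replicate left out. Chosen after seeing the data were limma voom with a weight per group and a mean of at least 10 CPM. Calling was tested on simulated data. Plots used Python 3.11.15 with numpy 2.4.6, pandas 2.3.3 and matplotlib 3.10.9.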

Additional observations from a re-analysis of the deposited data

How the results depend on the processing

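PEG 3 h against ABA 3 h gave 6498 genes past the threshold, and no call changed direction under any alternative run. Tested with glmTreat against 2-fold itself, 2859 genes passed (2015 higher, 844 lower), with 8 lignin genes higher and 9 lower. With limma on log2(FPKM + 1) there were 3809 (1684 higher), and 3537 (1587 higher) with a mean of at least 1 FPKM; with log2(FPKM + 0.1), 4615 were lower. Median log2 fold changes over all genes were -0.15 on log2(FPKM + 1), -0.20 with the minimum of 1 FPKM and -0.21 on log2(FPKM + 0.1), and within 0.062 of 0 under the other alternatives. Restricted to a mean of at least 10 CPM, chosen after seeing the data, 2272 genes passed (1424 higher, 848 lower), with 8 lignin genes higher and 14 lower of 63 tested; fewer genes were tested there. Only the compared groups gave 4507 genes. The main fit shared its spread over 5 groups, so SEs may be too small for genes whose ABA or PEG replicates differ. In limma voom the weight was 0.39 for ABA 3 h and 0.80 for PEG 3 h, against 1.74 for CK 3 h. With these weights 4737 genes passed (2709 higher, 2028 lower), and 70.3% of the main calls were kept. Leaving out each library gave 6046 to 7110 genes, 3495 to 4189 higher and 2534 to 2925 lower.

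The replicate block gave 6155 genes (3582 higher, 2573 lower), 6039 of them shared with the fit without it, and left the same 35 lignin calls; deviations of same-numbered PEG and ABA libraries had correlations of -0.015 to -0.00065, so the numbers were not taken to pair the libraries. Of 756 values of 43 named genes under the alternatives, 706 kept their call and direction, 36 lost the call, 6 gained it and 8 changed sign. The sign changes were in PheCAD5, at -0.051 on log2(FPKM + 1), with or without the minimum of 1 FPKM, -0.052 on log2(FPKM + 0.1) and from -0.19 to 0.50 with libraries left out, and in PheCAD11, at 0.79 with voom weights and from -1.53 to 1.502 with libraries left out. The counts of the called genes in NaCl 3 h and in PEG 24 h stayed within 1.5 times under every alternative run for them.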
